A study of Homo sapiens with 6 samples.

Results

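The albumin gene family and 2 partner carriers of plasma were examined in HepG2, a cell line from a human hepatocellular carcinoma that makes many liver plasma proteins. The genes were chosen by symbol: ALB, AFP, AFM and GC, which form the albumin family, with TTR (transthyretin) and RBP4 (retinol binding protein 4). All 6 were found among the 34036 genes of the count table. Cells received either a pool of siRNAs against DGUOK or a non-targeting siRNA, each by lipid transfection at 6 pmol per well. RNA, which the labels name as polyA RNA, was taken 48 h later. DGUOK encodes the mitochondrial kinase that salvages purine deoxynucleosides, and the comparison asked how its knockdown changed the transcriptome. Each group, siControl and siDGUOK, had 3 libraries that the series text calls independent biological replicates. No label ties a library to a separate culture, so p-values measure the spread between these samples only.

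Albumin is the main protein of plasma and carries fatty acids, hormones and drugs. AFP (alpha-fetoprotein) is its fetal counterpart, is shut down after birth in normal liver and is often made again by hepatocellular carcinomas. AFM (afamin) carries vitamin E and Wnt proteins, and GC is the vitamin D binding protein, which also takes up free actin. TTR carries thyroxine and holds the complex of RBP4 with retinol in the circulation. Hepatocytes are the chief source of all of these proteins, and factors of the HNF4, FOXA and C/EBP families bind near their promoters.

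Total counts were 19065684, 18915508 and 10527216 in siControl replicates 1, 2 and 3. They were 18613138, 15978314 and 21334876 in siDGUOK replicates 1, 2 and 3. DGUOK itself, the gene the siRNAs target, had 1019, 997 and 506 counts in the siControl libraries and 168, 171 and 146 in the siDGUOK libraries. The groups did not overlap, and its log2 fold change was -2.57 ± 0.19 (SE; adjusted p = 1.64e-08 by edgeR's quasi-likelihood test with Benjamini-Hochberg adjustment over all genes tested). Group labels were taken from the sample titles, since the treatment field names siControl for all 6 samples.

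A pair of siDGUOK libraries stood apart, replicate 1 in transcripts of T cell receptor genes and replicate 2 in those of endothelial genes. Both also stood apart in transcripts of some fibroblast genes. siDGUOK replicate 1 had counts on 21057 genes, against 16205 to 17583 in the other 5 libraries, and 107601 of its counts (0.578%) lay on 9 segments of the T cell receptor delta locus. siDGUOK replicate 2 had 512 such counts and the other 4 libraries none. Because most of these counts lay on very short segments, they took 27.3% of the length-scaled signal (TPM) in siDGUOK replicate 1, so levels are given below as CPM (counts per 1000000 of the TMM-scaled library size), and between genes as CPM per kilobase of exon. siDGUOK replicate 2 held 510 counts of the endothelial gene VWF, against 0 to 26 in the other libraries. Of the fibroblast markers, COL1A1 was high in every siDGUOK library, with 374, 336 and 379 counts in replicates 1, 2 and 3. It had 9 to 37 counts in siControl libraries. In CPM, ACTA2 and PDGFRB of siDGUOK replicates 1 and 2 lay within or below the siControl range. COL3A1 had 148 and 254 counts in siDGUOK replicates 1 and 2, against 0 to 9 in the other 4 libraries. COL1A2 had 124 and 169, against 0 to 14, and DCN had 21 and 26, against 0. What part this RNA had in the results was not tested, but each tested member is given with and without these libraries.

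ALB, AFP and AFM lie in 1 cluster on chromosome 4 and all are read from the plus strand (GRCh38, Gencode 44). ALB (ENSG00000163631.16) spans chr4:73397114-73421482 and AFP (ENSG00000081051.7) spans chr4:73431138-73456174. AFM (ENSG00000079557.4) spans chr4:73481745-73504001. The starts of their canonical transcripts are 31.9 kb apart from ALB to AFP and 45.5 kb from AFP to AFM, and each of the 3 canonical transcripts has 15 exons. GC (ENSG00000145321.12) lies on the minus strand of the same chromosome at chr4:71741696-71804041, 1620 kb from ALB between canonical starts. TTR (ENSG00000118271.9) is at chr18:31557009-31598833 on the plus strand and RBP4 (ENSG00000138207.13) at chr10:93591687-93601744 on the minus strand. RBP4 overlaps FFAR4 on the other strand, and the counting was not set to use strand. FFAR4 had at most 3 counts in a library.

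Promoters of 4 of the 6 genes were in the RefSeq table (GRCh38.p14), and GC and TTR had no entry. They are shown because ALB, AFP and RBP4 were all called lower and AFM lies in 1 cluster with ALB and AFP, from 250 bases before to 50 bases after the canonical start, 5′ to 3′ on the gene's own strand. The windows are chr4:73404037-73404336 for ALB, chr4:73435971-73436270 for AFP, chr4:73481495-73481794 for AFM and chr10:93601186-93601485 for RBP4, the last on the minus strand. RBP4 has 3 starts in the table, and only the window at its canonical start is printed. Capitals mark matches, on either strand, to 5 short motifs.
ALB: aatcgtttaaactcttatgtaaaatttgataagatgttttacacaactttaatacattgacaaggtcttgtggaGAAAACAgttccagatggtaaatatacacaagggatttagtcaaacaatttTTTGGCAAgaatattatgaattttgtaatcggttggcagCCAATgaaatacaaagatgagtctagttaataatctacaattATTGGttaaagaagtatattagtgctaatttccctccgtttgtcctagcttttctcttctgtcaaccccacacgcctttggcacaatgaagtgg
AFP: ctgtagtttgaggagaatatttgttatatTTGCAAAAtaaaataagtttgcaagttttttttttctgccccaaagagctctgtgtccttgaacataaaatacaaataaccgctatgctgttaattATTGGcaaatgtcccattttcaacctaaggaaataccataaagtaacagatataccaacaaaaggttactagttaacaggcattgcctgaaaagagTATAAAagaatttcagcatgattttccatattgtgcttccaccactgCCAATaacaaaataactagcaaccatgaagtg
AFM: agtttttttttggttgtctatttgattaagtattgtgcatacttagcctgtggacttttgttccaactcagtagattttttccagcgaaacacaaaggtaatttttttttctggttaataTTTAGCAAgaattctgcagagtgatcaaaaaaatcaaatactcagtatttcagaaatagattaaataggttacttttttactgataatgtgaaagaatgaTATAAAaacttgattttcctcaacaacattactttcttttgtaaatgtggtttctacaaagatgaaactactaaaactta
RBP4: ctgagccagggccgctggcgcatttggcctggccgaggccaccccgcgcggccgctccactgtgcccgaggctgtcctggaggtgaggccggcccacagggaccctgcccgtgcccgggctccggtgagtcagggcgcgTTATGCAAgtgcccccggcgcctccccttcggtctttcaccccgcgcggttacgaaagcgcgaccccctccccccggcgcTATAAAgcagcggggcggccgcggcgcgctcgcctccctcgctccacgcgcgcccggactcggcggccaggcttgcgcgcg

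Searched as motifs were the TATA box TATAAA and the box of NF-Y factors CCAAT. Others were TGTTTNC for forkhead factors, TTGCNNAA for C/EBP factors and CAAAGTCCA for HNF4, and a match is only a description of the letters. TTGCNNAA was found in all 4 windows, at -125 in ALB, -221 in AFP, -130 in AFM and -111 in RBP4, beside 10.5% of 34796 promoter sequences of the same length. The windows at the other 2 starts of RBP4 did not hold it. TATAAA lay at -29 in AFP, -30 in AFM and -31 in RBP4 and was not in the ALB window; 11.6% of promoters held it. CCAAT was present at 2 places each in ALB and AFP, beside 34.6% of promoters. In ALB the reverse of TGTTTNC lay at -176 (18.0% of promoters), and CAAAGTCCA was in none of the 4 windows (0.385% of promoters). The RBP4 window was 76.0% G and C, against 33.3% in ALB, 33.0% in AFP and 27.7% in AFM.

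ALB, AFP, TTR and RBP4 all fell in the siDGUOK libraries, by 2.98, 2.66, 3.06 and 2.20 fold, and AFM and GC were too low in either group to be tested. Of the 6 genes, 4 passed the filter on low counts, and all 4 were called lower, a call being made where the adjusted p is below 0.05 and the log2 fold change is beyond 0.5 in either direction. Among all 14476 genes tested, 14.1% were called in either direction, 6.68% lower and 7.42% higher. Of the 1883 genes whose mean reached 100 CPM, which include these 4, 10.8% were called lower. All siDGUOK libraries lay below all siControl libraries for each of the 4 genes, as they did for 17.3% of all genes tested. They did so for 558 of the 1883 genes whose mean reached 100 CPM, a larger share. In a bulk RNA sample, fewer cells that make a transcript and less of it per cell cannot be told apart.

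**Figure D1:**
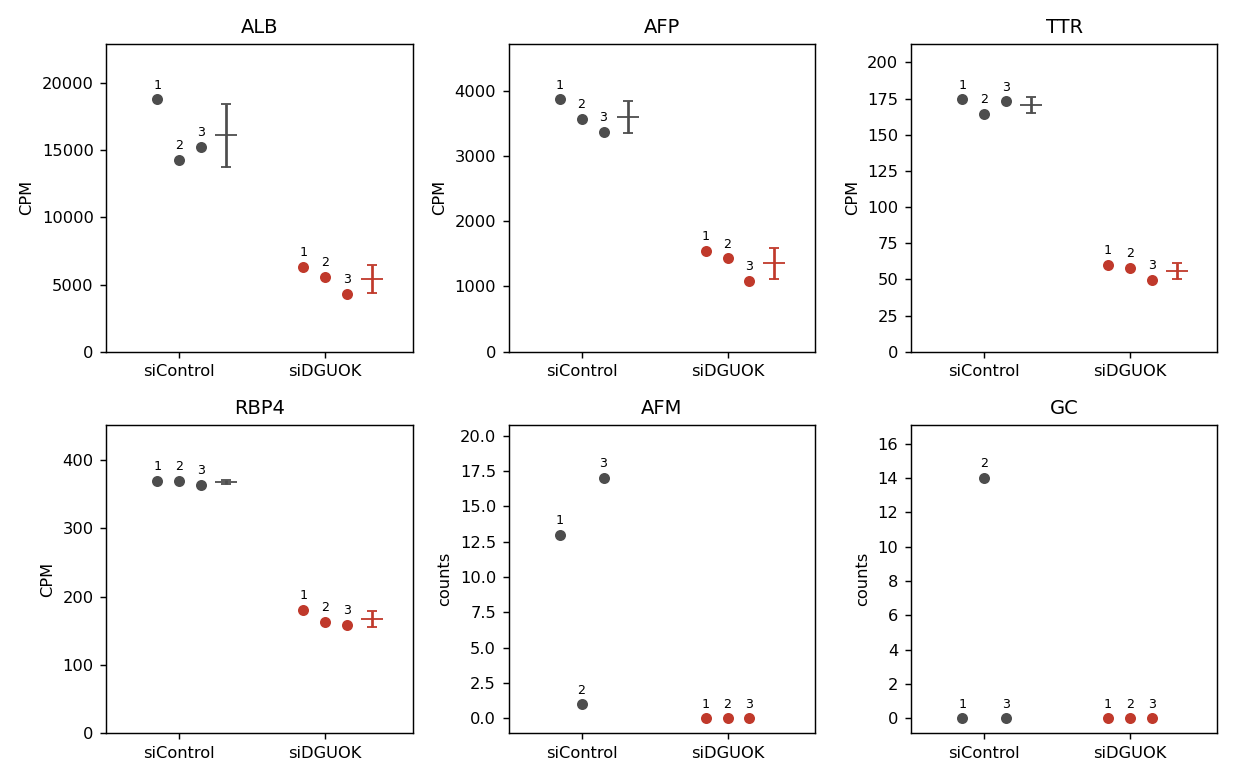
Level of each gene in every library, as CPM for ALB, AFP, TTR and RBP4 and as raw counts for AFM and GC. Points are libraries with their replicate numbers, and bars, given for the CPM panels, are the group mean and SD (n = 3). In the 4 CPM panels every siDGUOK library lies below every siControl library, and AFM and GC are at 0 in all 3 siDGUOK libraries.

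ALB had 351803, 267890 and 160249 counts in siControl replicates 1, 2 and 3, or 18791, 14273 and 15276 CPM. In siDGUOK replicates 1, 2 and 3 it had 117107, 90890 and 93021 counts, or 6328, 5595 and 4280 CPM. siControl replicate 1 was the highest library and siDGUOK replicate 3 the lowest, and the groups did not overlap. Mean levels were 16113 ± 2372 CPM in siControl and 5401 ± 1038 CPM in siDGUOK (SD, n = 3). The log2 fold change was -1.58 ± 0.15 (SE; edgeR adjusted p = 4.74e-05). The adjusted p of ALB was the largest among the 4 tested members, and its siControl libraries were the most spread. Per length, ALB was 2nd of all genes in each siControl library, behind the mitochondrial rRNA gene MT-RNR2, and 14th, 14th and 21st in the siDGUOK libraries. T cell receptor segments took the top 3 places in siDGUOK replicate 1. Of the CPM lost over all genes with a lower mean in siDGUOK, ALB accounted for 7.69%, the largest loss among the genes tested.

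AFP had 72445, 66945 and 35419 counts in the siControl libraries, or 3869, 3567 and 3376 CPM. In the siDGUOK libraries it had 28622, 23239 and 23647 counts, or 1546, 1430 and 1088 CPM. The lowest AFP level was again in siDGUOK replicate 3, and no siDGUOK library reached the siControl range. The mean went from 3604 ± 249 to 1355 ± 238 CPM (SD, n = 3), a log2 fold change of -1.41 ± 0.10 (SE; edgeR adjusted p = 9.95e-09). AFP ranked between 23rd and 24th per length in siControl libraries and between 81st and 113th in siDGUOK libraries.

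TTR had 3266, 3082 and 1815 counts in siControl and 1106, 940 and 1083 in siDGUOK libraries. As CPM these were 174, 164 and 173 against 59.8, 57.9 and 49.8. Replicates of TTR lay close together, at 171 ± 5.54 CPM in siControl and 55.8 ± 5.27 in siDGUOK (SD, n = 3). Its log2 fold change of -1.61 ± 0.10 (SE; edgeR adjusted p = 1.92e-09) differed from that of ALB by less than either SE, and the order of the pair turned without siControl replicate 2, siControl replicate 3 or siDGUOK replicate 1. Of all genes tested, 2.22% had a lower value than TTR.

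RBP4 had 6913, 6946 and 3819 counts in siControl and 3337, 2648 and 3452 in siDGUOK libraries. These were 369, 370 and 364 CPM against 180, 163 and 159 CPM. The siControl libraries differed little, with a mean of 368 ± 3.26 CPM, and the siDGUOK mean was 167 ± 11.4 CPM (SD, n = 3). RBP4 fell least of the 4, with a log2 fold change of -1.14 ± 0.08 (SE; edgeR adjusted p = 8.30e-09). Of all genes tested, 4.75% had a lower value than RBP4.

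The order of levels per length was the same in both groups. In siControl, ALB stood at 4696 ± 691 CPM per kilobase of exon, AFP at 1126 ± 77.7, RBP4 at 252 ± 2.24 and TTR at 78.4 ± 2.55 (SD, n = 3). In siDGUOK the means were 1574 ± 302 for ALB, 423 ± 74.5 for AFP, 115 ± 7.81 for RBP4 and 25.7 ± 2.42 for TTR. These neighbours in the order were apart by more than their spread in each group. The gap between RBP4 and TTR depends on the length used, since the exons of TTR cover 2176 bases in the annotation and its canonical transcript 616. Over canonical transcripts the siControl means were 344 for RBP4 and 277 for TTR.

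AFM and GC were close to absent from these cells. AFM had 13, 1 and 17 counts in siControl replicates 1, 2 and 3 and 0 in each siDGUOK library. Summed over the group, this was 0.639 CPM of the raw totals in siControl (exact Poisson 95% interval 0.434 to 0.907; intervals and floors cover counting error only). The siDGUOK sum of 0 allows up to 0.0536 CPM, taken as 3 counts over the group. The siControl sum of AFM lay 11.9-fold above that floor, a ratio that leaves out the counting error of the siControl sum. This ratio was 6.87 without siControl replicate 3, 7.37 without siDGUOK replicate 3 and 18.9 without siControl replicate 2. Leaving libraries out for this ratio was chosen after seeing the data. AFM did not pass the filter, and in a fit without the filter the adjusted p of edgeR was 0.153, while DESeq2 gave 0.0259. GC had 14 counts in siControl replicate 2 and 0 in the other 5 libraries. Its siControl sum was 0.289 CPM of the raw totals (interval 0.158 to 0.484), 5.38-fold above the siDGUOK floor, but that difference lies in 1 library. Without the filter edgeR gave GC an adjusted p of 0.370, and DESeq2 gave none.

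With each library left out in turn, the 4 tested genes kept their call. Without siDGUOK replicate 1 the log2 fold changes were -1.72 for ALB, -1.53 for AFP, -1.68 for TTR and -1.21 for RBP4. Without siDGUOK replicate 2 they were -1.60, -1.45, -1.64 and -1.12 in the same order. Without siDGUOK replicate 3, the lowest library for each of the 4 genes, they were weaker, at -1.44, -1.28, -1.54 and -1.11. The largest adjusted p among the 4 under any alternative was 0.0267, for ALB without siControl replicate 2.

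Together the 6 genes held 2.28%, 1.82% and 1.91% of all counts in siControl replicates 1, 2 and 3. Their share was 0.807%, 0.737% and 0.568% in siDGUOK replicates 1, 2 and 3. The groups did not overlap, and the means were 2.01% ± 0.242 and 0.704% ± 0.123 (SD, n = 3). A two-sided exact permutation test of 3 libraries against 3 gave p = 0.1, the smallest value it allows. Among the 6, ALB made up 77.7% to 81.0% of the counts in siControl and 76.8% to 78.0% in siDGUOK libraries. The share of mitochondrially encoded genes was 3.01% ± 0.670 in siControl and 2.57% ± 0.290 in siDGUOK (SD, n = 3).

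**Figure D2:**
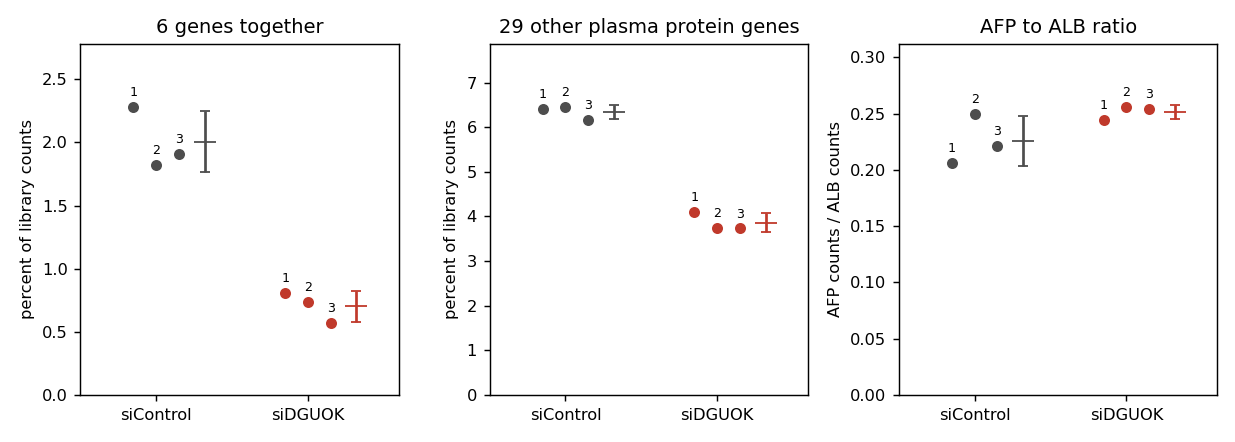
Percent of each library's counts on the 6 genes together and on 29 other plasma protein genes, and the ratio of AFP to ALB counts. Points are libraries with their replicate numbers, bars the group mean and SD (n = 3). The shares of the 6 genes lie between 1.82% and 2.28% in siControl and between 0.568% and 0.807% in siDGUOK, whereas the ratios overlap between the groups.

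The AFP to ALB ratio of counts was 0.206, 0.250 and 0.221 in siControl replicates 1, 2 and 3. It was 0.244, 0.256 and 0.254 in siDGUOK replicates 1, 2 and 3. The groups overlapped, since siControl replicate 2 lay above siDGUOK replicate 1. Mean ratios were 0.226 ± 0.0224 and 0.251 ± 0.00614 (SD, n = 3), and per length of exon 0.242 ± 0.0240 and 0.270 ± 0.00657. The mean log2 ratio was higher by 0.16 ± 0.08 (SE) in siDGUOK, with a two-sided exact permutation p = 0.2 (0.1 is the smallest possible). The groups were not told apart by this test, and without siControl replicate 1 the difference was 0.10.

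The other 5 ratios among the 4 tested genes were formed after their values were seen. RBP4 to TTR was 2.12, 2.25 and 2.10 in siControl and 3.02, 2.82 and 3.19 in siDGUOK libraries, a difference of 0.48 ± 0.06 (SE) on the log2 scale. RBP4 to ALB was between 0.0197 and 0.0259 in siControl and between 0.0285 and 0.0371 in siDGUOK. RBP4 to AFP was between 0.0954 and 0.108, then between 0.114 and 0.146. In each of these 3 ratios the groups did not overlap, and the exact permutation p was 0.1, or 0.2 after Benjamini-Hochberg adjustment over the 6 ratios. TTR to ALB and TTR to AFP overlapped between the groups. With 3 libraries a group none of these permutation tests could pass 0.05.

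Many other plasma protein genes of hepatocytes fell. Of 29 listed, 27 were tested, and edgeR called 21 lower and 0 higher, as did DESeq2, and 0 were higher at an unadjusted p below 0.05. Over all genes tested 6.68% were called lower and 7.42% higher. These 27 had a median log2 fold change of -1.07, beside 0.02 over all genes tested. Their share of counts was 6.34% ± 0.158 in siControl and 3.86% ± 0.211 in siDGUOK (SD, n = 3). HPX, which binds free heme, changed by -2.50 ± 0.25, APOC3, a brake on triglyceride clearance, by -2.19 ± 0.14, and FGA, a fibrinogen chain, by -1.86 ± 0.09 (log2, SE). SERPINA1, the main protease inhibitor of plasma, was at 7770 ± 374 CPM in siControl and 7875 ± 553 in siDGUOK (SD, n = 3), and its log2 fold change was 0.02 ± 0.07 (SE). APOA2, FETUB, PLG, ORM1 and ORM2 were not called either, and counts of the last pair are uncertain because their sequences are nearly alike. In log2 fold change ALB and TTR each stood above 8 of the 27 genes, AFP above 9 and RBP4 above 11, so all 4 lay inside the range of this list.

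**Figure D3:**
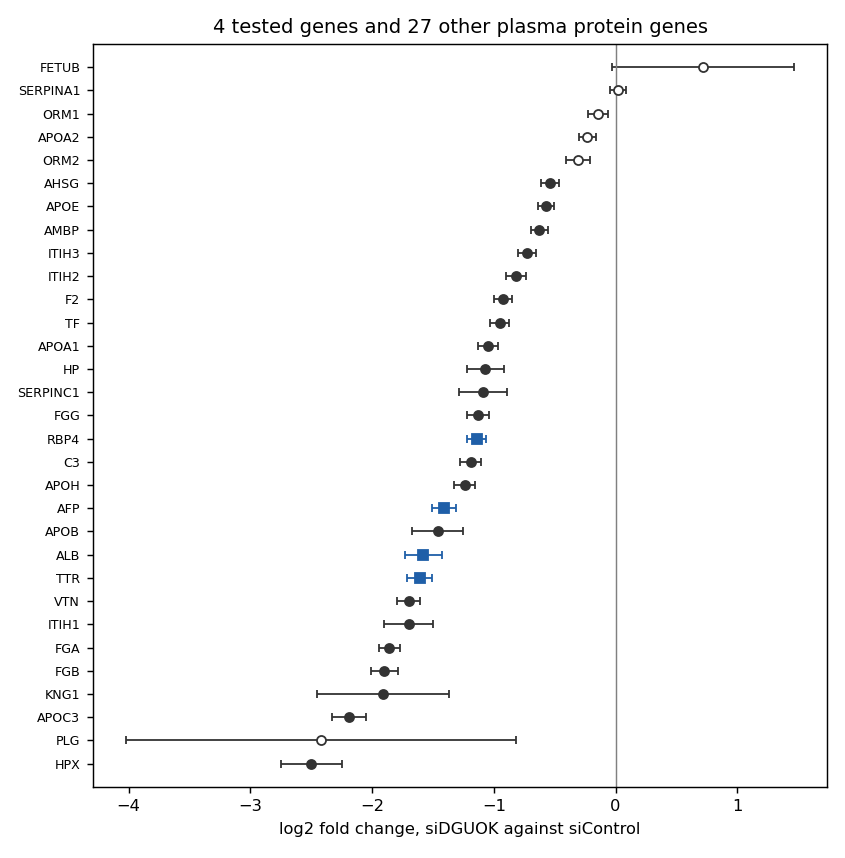
Log2 fold change of siDGUOK against siControl with SE for ALB, AFP, TTR and RBP4 (squares) and 27 other plasma protein genes (circles), sorted by value. Filled symbols passed the call. The 4 squares lie between -1.61 and -1.14, inside the range from HPX at -2.50 to FETUB at 0.72.

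Of 27 genes for transcription factors known to bind the promoters or enhancers of these genes, all were tested, 7 were called lower and 1 higher, where 6.68% and 7.42% of all genes tested were, and the median log2 fold change was -0.28, beside 0.02 for all. CEBPA, the C/EBP factor of mature hepatocytes, had 116, 118 and 129 CPM in siControl and 62.5, 49.0 and 55.8 in siDGUOK libraries (log2 fold change -1.12 ± 0.11 SE; edgeR adjusted p = 9.23e-07). ONECUT1, FOXA1, GATA4, NR2F2 and ZHX2, a repressor of AFP, were also lower, by -1.94, -0.91, -1.06, -0.97 and -0.66. HNF4A, a nuclear receptor at the head of the hepatocyte program, was called at -0.51 ± 0.08, just past the threshold of 0.5. ZBTB20, a repressor of AFP after birth, was the 1 gene called higher, at 1.71 ± 0.47, from 2.16 ± 1.04 to 6.99 ± 1.31 CPM (SD, n = 3). FOXA2, FOXA3, CEBPB and the NFI and NF-Y genes did not pass the call.

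**Figure D4:**
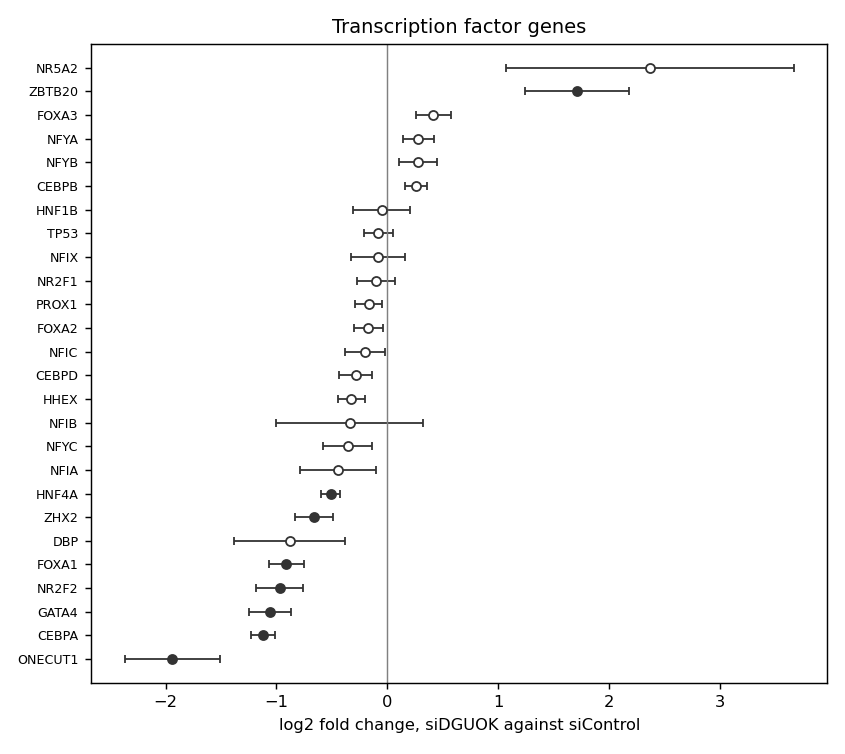
Log2 fold change of siDGUOK against siControl with SE for 26 of the 27 tested genes of transcription factors, sorted by value, with 1 not drawn. Filled circles passed the call. The 7 called lower run from -1.94 for ONECUT1 to -0.51 for HNF4A, and ZBTB20 at 1.71 is the 1 called higher.

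Retinol carriage by RBP4 and TTR is coupled to uptake, storage and oxidation inside cells. Of 19 genes of retinol and retinoic acid handling, 18 were in the table, 12 were tested, 3 were called higher and 2 lower, beside 14.1% of all genes tested called in either direction. Their median log2 fold change was -0.08, and it turned to 0.06 over the 9 of them with a mean TPM above 10. CRABP2, which carries retinoic acid to the nucleus, changed by 2.64 ± 0.27 (SE) and RDH10, which oxidizes retinol, by 1.37 ± 0.12. RDH11 and ALDH1A1, a retinal reductase and a retinal dehydrogenase, changed by -1.12 ± 0.10 and -1.11 ± 0.09. STRA6, the receptor of RBP4, stood at 8.23 ± 1.26 and 4.41 ± 1.78 CPM and was not called (edgeR adjusted p = 0.106).

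Among 6 genes of thyroid hormone carriage and action, the partners of TTR, 4 were tested and 3 were called lower, beside 6.68% of all genes tested, with a median of -1.05. By contrast 0 were higher by edgeR, by DESeq2 or at an unadjusted p below 0.05. SERPINA7, which encodes thyroxine binding globulin, had a log2 fold change of -1.18 ± 0.11, beside -1.61 ± 0.10 for TTR. DIO1, the deiodinase of liver, and THRB, a thyroid hormone receptor, changed by -1.38 ± 0.36 and -0.92 ± 0.26. Of 7 genes of vitamin D handling and actin scavenging, the roles of GC, 6 were tested, 2 were called lower and 1 higher, beside 14.1% of all genes called either way, with a median of -0.12 that went to -0.30 over the 4 with a mean TPM above 10. GSN, the other plasma actin scavenger, changed by -0.84 ± 0.08, DHCR7, which uses up the precursor of vitamin D, by -0.65 ± 0.07, and CYP24A1, which breaks vitamin D down, by 0.97 ± 0.20.

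Of 6 genes for recycling and uptake of albumin, 5 were tested, 2 were called lower and 1 higher, again beside 14.1% of all genes, with a median of -0.04 that went to -0.33 over the 4 with a mean TPM above 10. FCGRT, the receptor that saves albumin from breakdown, changed by -0.61 ± 0.10, while its partner B2M was at -0.04 ± 0.07. AMN, a membrane anchor of the uptake receptor cubilin, changed by -1.87 ± 0.18, and DAB2, an adaptor of that uptake, was higher by 1.61 ± 0.16. The receptor genes of the list were close to absent, with 0 to 21 counts of CUBN (cubilin) in a library and 0 of LRP2 in each. Of 9 fetal liver genes, the class of AFP, 8 were tested and 1 was called, a share near the 14.1% of all genes tested, with a median of -0.30 beside 0.02 for all. That gene was GPC3, a surface proteoglycan of fetal liver and liver cancer, at -1.05 ± 0.06. IGF2 was at -0.47 ± 0.09 and IGF2BP1 at 0.40 ± 0.09, neither past the fold threshold. The log2 fold change of AFP, -1.41, was below that of each of these 8.

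**Figure D5:**
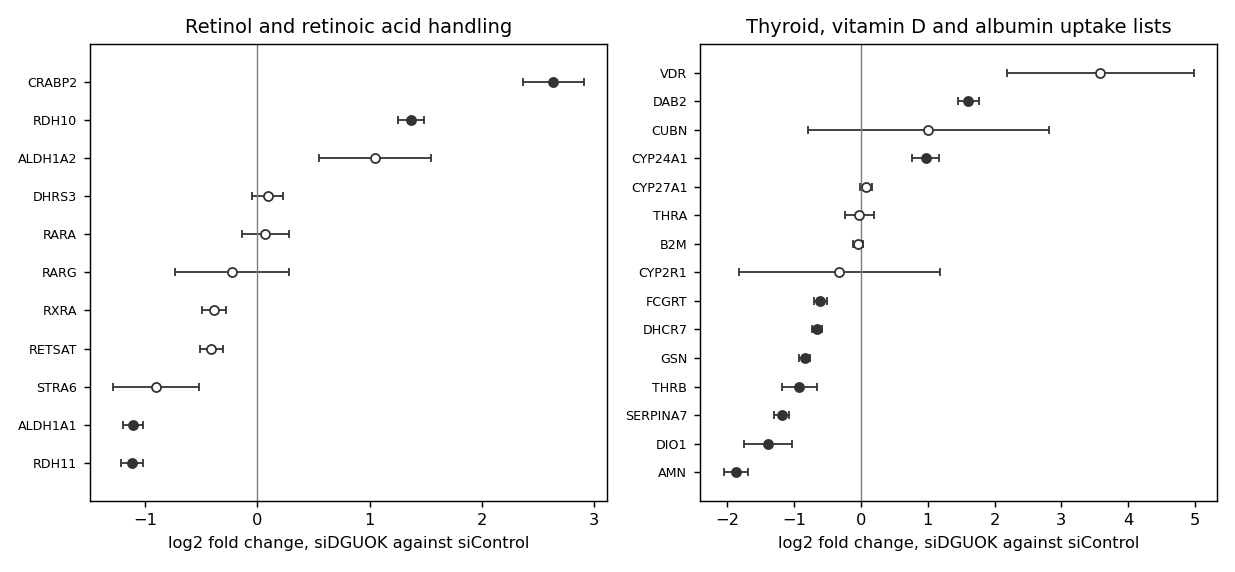
Log2 fold change of siDGUOK against siControl with SE for 11 of the 12 tested genes of retinol and retinoic acid handling (left, 1 not drawn) and of the thyroid, vitamin D and albumin uptake lists (right), sorted by value. Filled circles passed the call. CRABP2 at 2.64 and RDH11 at -1.12 are the ends of the left panel.

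Hepatocyte markers were described on 8 genes other than ALB and TTR, all of them also among the plasma protein or transcription factor genes above. Of the 10 markers with ALB and TTR, 8 were called lower and 0 higher, beside 6.68% and 7.42% of all genes tested. The summed CPM of the 8 was 31345, 30284 and 28508 in siControl and 20073, 17396 and 17550 in siDGUOK libraries, with 0 of them without counts. TF, the iron carrier transferrin, was the most abundant in each siControl library and SERPINA1 in each siDGUOK library. Cholangiocyte or progenitor markers summed to 1237, 1466 and 1493 against 2701, 2906 and 3104 CPM. KRT19 was the most abundant of these 5 and was called higher at 1.51 ± 0.10, while EPCAM was called lower at -0.82 ± 0.09. The 6 stellate cell or fibroblast markers summed to 36.5 to 44.2 CPM in siControl and 47.5 to 76.2 in siDGUOK, with ACTA2 the most abundant. By edgeR, COL1A1 was called higher at 4.04 ± 0.39 and PDGFRB lower at -1.02 ± 0.32. DESeq2 called 3 of these markers higher and 1 lower. COL1A2, COL3A1 and DCN had most of their counts in siDGUOK replicates 1 and 2. The 5 endothelial markers summed to 1.39 to 2.29 CPM in siControl, to 4.48 and 4.05 in siDGUOK replicates 1 and 3 and to 58.5 in siDGUOK replicate 2, mostly VWF, while STAB2 was at 0 in all libraries. Of the endothelial markers, edgeR called 0 higher and DESeq2 1. The 5 blood markers in the table summed to 3.95 to 7.19 CPM in siControl and 5.66 to 12.4 in siDGUOK. By group mean, CD14 was the highest of them in siControl and PTPRC in siDGUOK. The part of these markers in the fall of ALB, AFP, TTR and RBP4 was not tested.

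Genes with a canonical start within 500 kb of a member's canonical start, a definition set after values were seen, numbered 46 in the table. Of the 14 tested, edgeR and DESeq2 each called 0 lower and 2 higher, 1 was lower at an unadjusted p below 0.05, and the median log2 fold change was -0.11. The share called is near the 14.1% of all genes tested, whose median was 0.02. CXCL8, a chemokine gene 259 kb downstream of AFM, had 16.1, 16.1 and 17.3 CPM in siControl and 203, 202 and 260 in siDGUOK libraries (log2 fold change 3.75 ± 0.12 SE; edgeR adjusted p = 6.98e-13). MYOF, 119 kb downstream of RBP4, changed by 1.84 ± 0.33. ANKRD17, 146 kb upstream of ALB, was at -0.12 ± 0.11 and DSG2, 93.7 kb upstream of TTR, at -0.13 ± 0.08.

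The genes whose pattern over the 6 libraries was most like that of a member were found among 1882 others that reached a mean of 100 CPM, by the root mean square difference of centred log2 CPM. For ALB these were MTTP (0.097), ACADSB (0.102) and AFP (0.116). For AFP they were C5 (0.106), APOH (0.107) and FGL1 (0.108). For TTR they were ACADSB (0.108), FABP1 (0.115) and MTTP (0.116), and ALB itself stood at 0.133. For RBP4 they were SERPINF1 (0.0486), GPC3 (0.0536) and NID1 (0.0594), and its distance to ALB was 0.281. ALB, AFP and TTR were within 0.133 of each other, and RBP4 was between 0.191 and 0.281 from them.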

How the data were processed

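Bulk RNA (polyA, per the labels) of 6 HepG2 libraries was analysed from the gene counts that the authors deposited. The authors removed tRNA, rRNA, adapter and spike-in reads, aligned paired-end reads to GRCh38 with STAR 2.6.1 and counted them per Gencode gene with featureCounts 1.6.5; per their methods the counts were not normalized. In its default mode featureCounts ignores strand and skips reads with several alignments. Totals ran from 10527216 to 21334876 counts.

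In R 4.3.3, edgeR 4.0.16 removed genes of low count (filterByExpr, minimum 10), computed TMM factors and tested the group term by its robust quasi-likelihood method, with Benjamini-Hochberg adjustment over 14476 genes. Each SE came from F, as the absolute log2 fold change over the root of F. CPM use TMM-scaled library sizes. Lengths came from Gencode 44, and promoters from RefSeq (GRCh38.p14). Ratios and shares were compared by two-sided exact permutation tests in scipy 1.17.1. Replicate pairs of a group differed by more than sampling noise (10.8 to 24.8 chi-square units for each degree of freedom).

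Members and lists were chosen with earlier results of these data known. Named genes are DGUOK, the 6 members, list genes, genes starting within 500 kb of a member's canonical start and the 3 genes most like each member. T cell receptor segments and MT-RNR2 were picked from their values, and CPM per kilobase replaced TPM once those segments were seen. The alternatives tried were DESeq2 1.42.0 (plain and shrunken), RLE and upper-quartile scaling, members or mitochondrial genes left out of library sizes, no filter, a mean TPM above 10, a replicate block, other fold thresholds and each library left out.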

Additional observations from a re-analysis of the deposited data

How the results depend on the processing

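Across 15 alternatives the log2 fold changes ran from -1.72 to -1.41 for ALB, -1.53 to -1.28 for AFP, -1.68 to -1.54 for TTR and -1.21 to -1.11 for RBP4, and each kept its call in all 15. A threshold of 1.5 on the absolute log2 fold change left 428 genes called in place of 2041, 2 of the members in place of 4 (ALB and TTR), 7 plasma protein genes lower, 1 transcription factor gene lower (ONECUT1) and 2 retinoid genes called in either direction. Leaving out 1 library gave 1704 to 1935 genes called, 4 members in each case, 19 to 21 plasma protein genes lower and 6 to 8 transcription factor genes lower. It gave log2 AFP to ALB differences of 0.0971 to 0.237 and share differences of -1.39 to -1.16 percentage points. DESeq2 without shrinkage called 5 members, AFM being the 5th. The retinoid list's median turned to 0.0593 with a mean TPM above 10, where 9 genes were tested in place of 12. Under the same filter the median of the albumin recycling and uptake list went from -0.04 to -0.33 (4 genes), that of the vitamin D list from -0.12 to -0.30 (4 genes) and that of the thyroid list from -1.05 to -1.30 (2 genes).

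The medians over all genes were 0.13 with DESeq2 and 0.14 without a filter, both of which hold many genes of low count, against 0.02 here. Leaving members or mitochondrial genes out of library sizes gave 2032 calls each. Both also moved the TMM reference library from siDGUOK replicate 1 to siControl replicate 3, so these alternatives cannot separate the effect of leaving genes out from that of the reference.

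Same-numbered libraries correlated at 0.024, 0.017 and -0.0022 once group means were removed, so the numbers gave no pairing over the genes tested as a whole. These correlations cannot show whether single genes were paired. With the replicate block 2077 genes and 4 members were called, and it changed no member's call. The block took the SE of ALB from 0.15 to 0.076 and that of AFP from 0.10 to 0.074. For TTR the SE stayed at 0.10, and for RBP4 it went from 0.079 to 0.082. The paired difference of the log2 AFP to ALB ratio was 0.161 and that of the share -1.30 percentage points. Counts of 0 to 17 limit what can be said of AFM and GC.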
